A study of Mus musculus with 4 samples.

Results

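Promoters of long noncoding RNAs (lncRNAs) that lie apart from the promoters of protein-coding genes were examined for NR2F1 signal in embryonic mouse hindbrain. Called peaks of 4 single-cell CUT&Tag libraries gave 263639 merged regions, and 35809 of these were covered by a peak in all 4. Of these, 1066 regions, or 2.98%, reached within 1 kb of a transcription start of a gene typed as lincRNA, antisense or processed transcript in GENCODE M21 and lay more than 1 kb from every protein-coding start. The rule used only peak positions and the annotation, and no signal level or difference between genotypes. CUT&Tag marks DNA near an antibody-bound protein by cutting it with a tethered transposase, and a cut site is 1 end of a fragment made in this way. Cells came from rhombomere 4 (r4) and adjacent tissue of embryonic day 10.5 mice that carry the Isl1MN-GFP reporter, which labels motor neurons. GFP-positive cells were sorted, and the gate was then opened to GFP-negative cells, so the libraries are not pure motor neurons. The 2 WT libraries each pooled 26 embryos, and the 2 libraries of Fam5snv/snv embryos, homozygous for a knock-in single-nucleotide variant in a regulatory element of Gata2, pooled 8 and 16. Strain was not given in the labels.

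NR2F1, also known as COUP-TFI, is a nuclear receptor that regulates the identity and migration of neurons in the developing brain. COUP-TF proteins bind as dimers to repeats of the hexamer AGGTCA, and a direct repeat with 1 base between the copies is among their known targets. Long noncoding RNAs have promoters of their own, and some serve as precursors of microRNAs or small nucleolar RNAs, some silence imprinted or X-linked genes, and others overlap developmental transcription factor genes, although the function of most is unknown.

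The regions are shown first through the few that hold a perfect direct repeat, AGGTCANAGGTCA on either strand, which was found 27 times in 23 of the 1066 regions. Of the 27 copies, 19 lay in repeat-masked sequence and 18 were under a called peak in all 4 libraries. Sequences are from the RefSeq GRCm38.p6 genome, read 5′ to 3′ on the strand of the repeat, with the repeat in capitals. The 6 shown are those outside masked repeats and under a peak in every library, and they show what an exact site looks like among these promoters.
Gm32921 (chr5:106322742-106322802, plus strand): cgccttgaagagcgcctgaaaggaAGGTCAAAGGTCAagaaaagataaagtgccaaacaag
Gm15582 (chr7:132657773-132657833, minus strand): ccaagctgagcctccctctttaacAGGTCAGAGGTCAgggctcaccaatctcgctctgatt
Gm43661 (chr5:124050849-124050909, minus strand): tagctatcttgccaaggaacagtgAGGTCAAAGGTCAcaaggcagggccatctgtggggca
A530013C23Rik (chr2:167692046-167692106, plus strand): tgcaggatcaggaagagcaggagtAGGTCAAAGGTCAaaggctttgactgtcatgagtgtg
4930452N14Rik and 4930532M18Rik (chr1:154258115-154258175, minus strand): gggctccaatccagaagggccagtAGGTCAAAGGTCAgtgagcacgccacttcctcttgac
Gm43242 (chr3:102370470-102370530, plus strand): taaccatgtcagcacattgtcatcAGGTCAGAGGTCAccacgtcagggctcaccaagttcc

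The distance from repeat to nearest annotated start was 1.43 kb for Gm32921, 2.09 kb for Gm15582, 1.48 kb for Gm43661, 0.889 kb for A530013C23Rik, 1.14 kb for the pair 4930452N14Rik and 4930532M18Rik, and 1.33 kb for Gm43242. The copies nearest to a start lay in masked sequence, at 50 bp in D030007L05Rik, 54 bp in AC091309.2 and 219 bp in Gm29346. Gm12496 and Gm16308 each held 3 copies that overlap one another in a tandem array, in masked sequence under peaks of all 4 libraries. In a window of 200 bases around the middle of each region, the direct repeat was present in 0.375% of the lncRNA promoters, in 0.0582% of coding promoter regions, and in 0.36% and 0.392% of the other regions inside and between coding genes. The single hexamer AGGTCA, on either strand and counted also where it is part of the direct repeat, occurred in 14.9% of these windows in lncRNA promoters, 10.1% in coding promoters, and 19.9% and 19.3% in the other regions. The direct repeat count rests on 4 lncRNA promoters. In the count of the single hexamer the lncRNA promoters stood between coding promoters and the other regions. An exact match describes letters only.

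Some members carry the microRNA itself. RefSeq microRNA hairpins were found inside 13 of the 1066 regions, 15 hairpins in all. The microRNA annotation used had no entry for miR-124, so its hairpins could not be counted. The mature sequences of the sets best known in neurons and sensory cells are printed with the seed, bases 2 to 8, in capitals. The same mature miR-9-5p is encoded by Mir9-3 in the first region of Mir9-3hg (chr7:79505279-79505301) and by Mir9-2 in the second region of C130071C03Rik (chr13:83738821-83738843), both on the plus strand. The other 3 lie on the minus strand in 1 region of Rncr4.
miR-9-5p: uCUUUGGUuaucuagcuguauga
miR-96-5p (chr6:30169506-30169528): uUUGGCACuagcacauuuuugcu
miR-182-5p (chr6:30165962-30165986): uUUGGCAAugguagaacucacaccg
miR-183-5p (chr6:30169711-30169732): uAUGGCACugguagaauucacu

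Of 9603 lncRNA genes of the 3 types, 1089, or 11.3%, had a start within 1 kb of a member, and 38 of them were touched by more than 1 member, at most 3. The annotated start itself lay inside the region for 857 members. By type, 682 members were lincRNA promoters, 249 antisense, 118 processed transcript and 17 of more than 1 type. The members were far from coding starts, at a median of 29.1 kb (quartiles 9.38 kb and 77.9 kb), and 217 were over 100 kb away. Still, 246 lay inside the body of a coding gene. GENCODE M21 defines the set, and RefSeq places a coding start within 1 kb of 61 members, 24 of them curated.

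The lncRNA promoters carried less NR2F1 signal per region than coding promoters and more than regions away from promoters. Signal is given in CPM, cut sites per 1000000 of the TMM-adjusted library total, over the 35770 regions with enough counts, which include 1064 members. The median lncRNA promoter had 14.5 and 16.5 CPM in the WT libraries and 17.9 and 18.3 CPM in the Fam5snv/snv libraries, from medians of 41.5, 47, 131 and 145 cut sites. Coding promoter regions had medians of 28 and 28.8 CPM in WT, against 26.1 and 25.5 CPM in Fam5snv/snv. The other regions had 9.81 and 11.6 CPM in WT inside coding genes, and 10.2 and 11.6 CPM between them. In every library the lncRNA promoters stood below coding promoters and above both kinds of other region. Per kb of called peak the classes lay closer together. The medians are given for WT replicates 1 and 2, then Fam5snv/snv replicates 1 and 2. They were 23.1, 11.8, 10.6 and 9.36 CPM per kb for lncRNA promoters and 27.8, 16.1, 13.4 and 11.8 CPM per kb for coding promoters. The other regions had 21.7, 10.9, 9.64 and 8.56 CPM per kb inside coding genes, and 22.2, 11.4, 10.2 and 9.07 CPM per kb between them. Per kb the lncRNA promoters were thus only slightly above the other regions. The value for WT replicate 1 is the highest in every class and its peaks are the shortest, with a median of 642 bp per member against 1400, 1618 and 1894 bp in the other libraries.

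**Figure D1:**
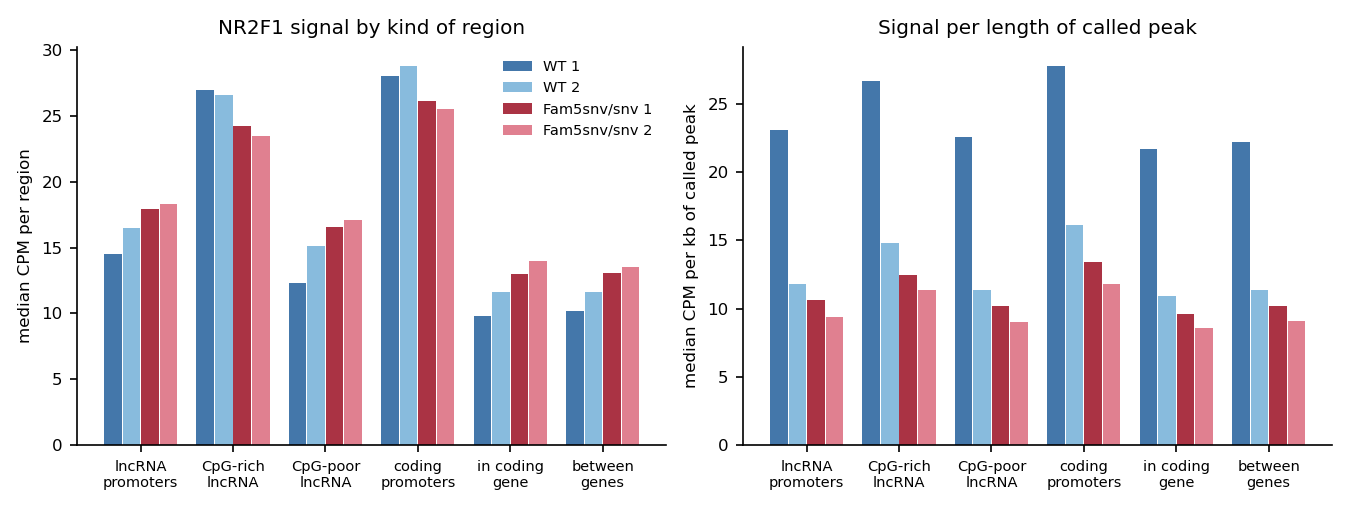
Median NR2F1 signal per region (left, CPM) and per kb of called peak (right, CPM per kb), for each kind of region in each library (bars; 1 bar is 1 library, with no error bar). The lncRNA promoters stand between coding promoters and other regions, though per kb they are only slightly above the other regions. The CpG-rich lncRNA promoters, at 26.6 and 27 CPM in WT, stand near the coding promoters.

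The class was a mixture of 2 kinds of start. A start was called CpG-rich where the 250 bases on either side had a GC content of at least 50% and an observed-to-expected CpG ratio of at least 0.6, and 184 members (17.3%) met this. CpG-rich members had medians of 27 and 26.6 CPM in WT, against 24.2 and 23.5 CPM in Fam5snv/snv, near those of coding promoters. The 882 CpG-poor members had 12.3 and 15.1 CPM in WT, against 16.6 and 17.1 CPM in Fam5snv/snv. In every library this was above both kinds of region away from promoters, but nearer to them than to coding promoters. Such regions had 9.81 and 11.6 CPM in WT, against 13 and 14 CPM in Fam5snv/snv, inside coding genes. Between coding genes they had 10.2 and 11.6 CPM in WT, against 13.1 and 13.5 CPM in Fam5snv/snv. Called peaks were centred on the start in the CpG-rich kind. In WT replicate 1 a peak covered 78.8% of CpG-rich starts, 36.8% of CpG-poor starts and 77.7% of coding starts, and in Fam5snv/snv replicate 2 it covered 97.3%, 74.7% and 94.3%. At 5 kb upstream these shares had fallen to 2.17%, 3.51% and 3.53% in WT replicate 1. The GENCODE start chosen was the one nearest to the middle of the region, which favours cover at the start in every class.

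**Figure D2:**
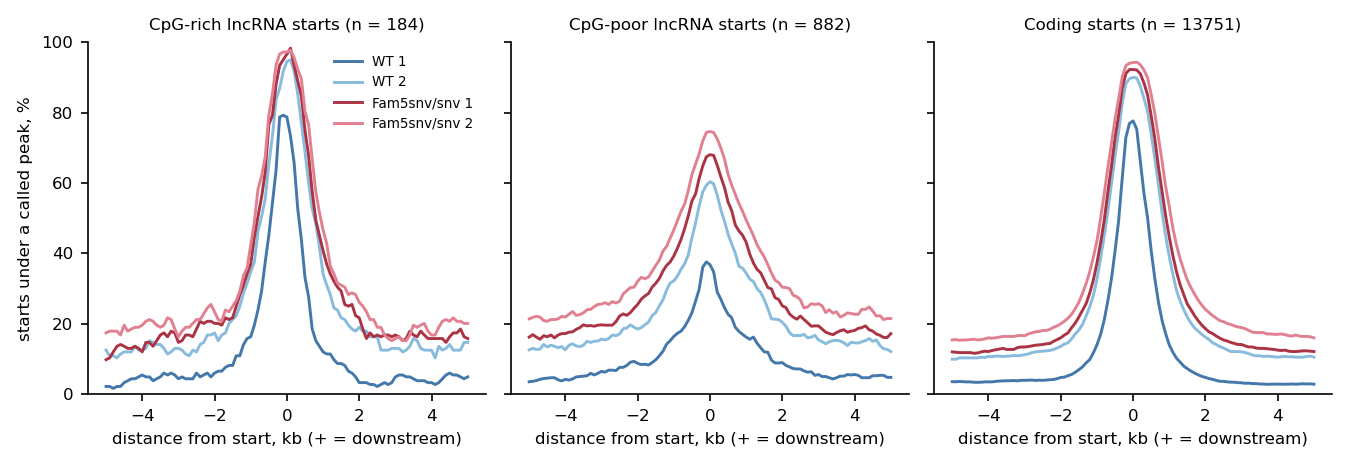
Percent of starts under a called peak (y) by distance from the start in kb (x, positive is downstream), for CpG-rich lncRNA starts, CpG-poor lncRNA starts and coding starts; each line is 1 library. Cover peaks at the start in all 3 sets and is lower and broader at CpG-poor lncRNA starts, with 36.8% to 74.7% of starts covered across libraries.

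The region of highest signal, at 4453 CPM on average, should not be read as a lncRNA promoter. It holds starts of AY036118, Gm26917 and Gm42418 (chr17:39842788-39849035) and overlaps an annotated copy of ribosomal RNA sequence. It had 5051 and 5140 CPM in WT, against 4884 and 2736 CPM in Fam5snv/snv, and reads from the many ribosomal RNA gene copies elsewhere in the genome could not be told apart from its own. It is left out of the ranks that follow. The next 9 by mean signal ran from Gm14488 to 1700023G09Rik, and they were wide regions, among which Mir124a-1hg, the precursor of the neuronal microRNA miR-124, was the one of known role.

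Gm14488 (chr2:30715615-30727015), which holds the hairpin of Mir3089, had 614 and 364 CPM in WT, against 372 and 399 CPM in Fam5snv/snv. D930028M14Rik (chr7:25147005-25157190), inside Pou2f2, had 576 and 341 CPM in WT, against 325 and 301 CPM in Fam5snv/snv. Gm13203 (chr4:148703337-148716710) had 457 and 280.3 CPM in WT, and 327 CPM in each Fam5snv/snv library. In each of these the highest library was WT replicate 1 and the other 3 lay close together. Mir124a-1hg (chr14:64584838-64600820) likewise had 325 and 217 CPM in WT, against 261 and 249.7 CPM in Fam5snv/snv. Its peaks covered 7810, 11933, 13686 and 15983 bp in the 4 libraries, and the merged region held 13 copies of AGGTCA, with no direct repeat. Gm33016, 24.6 kb from Dact1, had 347 and 188 CPM in WT, against 293 and 295 CPM in Fam5snv/snv. Gm11523, 17.5 kb from Copz2, had 354 and 231 CPM in WT, against 264 and 244 CPM in Fam5snv/snv, and Gm5091, 116 kb from the Notch ligand gene Dll1, had 325 and 218 CPM in WT, against 202 and 189.5 CPM in Fam5snv/snv. WT replicate 1 was the highest library in every one of these regions. The region of Gm14342 and Gm27032 had 329 and 212 CPM in WT, against 237 and 240.1 CPM in Fam5snv/snv, and 1700023G09Rik had 269 and 151 CPM in WT and 204 CPM in each Fam5snv/snv library.

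**Figure D3:**
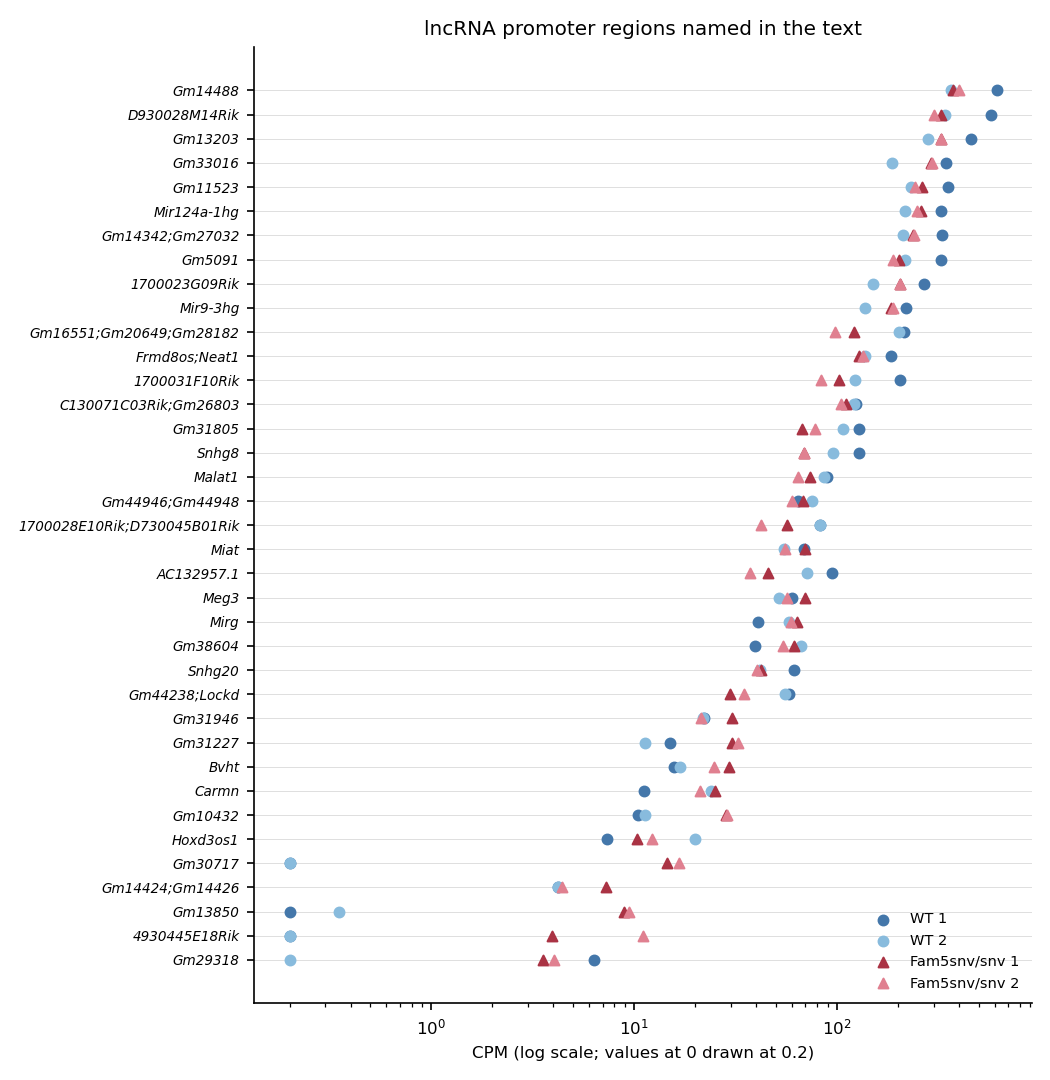
NR2F1 signal (x, CPM on a log scale, values of 0 drawn at 0.2) of lncRNA promoter regions named in the text (y), with a circle for each WT library and a triangle for each Fam5snv/snv library. In most regions of high signal WT replicate 1 is the point farthest to the right. Gm30717 has no cut site in its WT peaks of 4 and 6 bp, and 14.5 and 16.7 CPM in Fam5snv/snv.

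For 5 lncRNA promoters the nearest coding start was that of a gene the study names. Gm38604 (chr13:78180981-78188681), whose region ended 1.76 kb from a start of Nr2f1, the gene of the profiled protein, had 39.6 and 66.5 CPM in WT, against 61.2 and 54 CPM in Fam5snv/snv. Gm31946, 226 kb from Nr2f1, had 22.1 and 21.8 CPM in WT, against 30.3 and 21.5 CPM in Fam5snv/snv. Gm29318, at 1086 kb a neighbour only in rank, had 18, 0, 26 and 32 cut sites in the 4 libraries. At Nr2f2, the gene of the related COUP-TFII, the region of Gm44946 and Gm44948 (chr7:70345639-70351790) stood 3.45 kb from the coding start with 64.1 and 75.3 CPM in WT, against 67.9 and 60.1 CPM in Fam5snv/snv. In these 4 the genotypes overlapped. The fifth, the antisense gene 1700031F10Rik (chr6:88224013-88230426), shares its region with regulatory elements that the study examined near Dnajb8 and Gata2, so its signal cannot be assigned to a lncRNA promoter. That region also holds the position of the knock-in variant, and its counts pool these elements. The region had 205 and 123 CPM in WT, against 102 and 83.1 CPM in Fam5snv/snv, with both Fam5snv/snv libraries below both WT libraries.

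MicroRNA host genes were the lncRNA list of highest summed signal. Of 18 genes listed, 13 are typed as lncRNAs in GENCODE M21 and 9 had members, 14 in all, whose summed signal was 1277 and 1084 CPM in WT, against 1138 and 1083 CPM in Fam5snv/snv. After Mir124a-1hg the highest was the first region of Mir9-3hg (chr7:79495536-79510366), which contains the start and the Mir9-3 hairpin, with 219.7 and 138 CPM in WT, against 184 and 189 CPM in Fam5snv/snv. It held 19 copies of AGGTCA. Mir9-3hg had 2 further members downstream, at 38.9 and 40.1 CPM in WT, against 67 and 64.9 CPM in Fam5snv/snv for the middle one (chr7:79513541-79521565), and 170.3 and 116 CPM in WT, against 119 and 89 CPM in Fam5snv/snv for the last (chr7:79523844-79529155). The miR-9-2 host C130071C03Rik had 124 and 122 CPM in WT, against 111 and 105 CPM in Fam5snv/snv in the region of its main starts, and 24.5 and 28.5 CPM in WT, against 28.4 and 25.3 CPM in Fam5snv/snv in the region that holds the hairpin. Mir124-2hg had 2 members at 60.3 and 71 CPM, and 33.6 and 47.8 CPM, in WT. Thus host genes of both neuronal microRNA families, miR-9 and miR-124, had NR2F1 peaks at more than 1 start. Mir17hg, host of a cluster that promotes proliferation, had 63.1 and 64.4 CPM in WT, against 46.3 and 36.8 CPM in Fam5snv/snv. Rncr4, named here because of its 3 sensory microRNA hairpins and after its values were seen, had 42, 234, 407 and 511 cut sites over 747, 7959, 7740 and 10021 bp, and WT replicate 1 stood apart there with a short peak. As a check at the level of barcodes, each thinned to 567 cut sites, at least 1 cut site in the Mir124a-1hg region was seen in 11.5% and 9.22% of WT barcodes and 10.5% and 8.91% of Fam5snv/snv barcodes (14.2%, 17.7%, 28% and 25.3% unthinned, with 641 barcodes of WT replicate 1 too shallow to enter).

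Of 19 lncRNAs of neural development, 15 are typed as lncRNAs and 7 had members, 11 in all, among them the C130071C03Rik regions. Miat, a nuclear lncRNA of brain and retina, had 68.7 and 54.9 CPM in WT, against 69.9 and 55.4 CPM in Fam5snv/snv. Sox2ot, which overlaps the progenitor gene Sox2, had 3 members of low signal, from 3.15 to 12.7 CPM in WT and from 6.95 to 23.1 CPM in Fam5snv/snv. Rmst, a lncRNA of neuronal differentiation, was near the low end with 5.25 and 3.17 CPM in WT, against 8.2 and 9.36 CPM in Fam5snv/snv. Dlx1as, antisense to the forebrain gene Dlx1, had 3 cut sites in WT replicate 1 and 91, 191 and 164 in the other libraries, over 156 bp of peak against 4313, 3631 and 3400 bp. A further 7 genes of the list had regions only within 1 kb of a coding start and so are not members.

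The imprinted and X-inactivation list was led by the Dlk1-Dio3 locus on chromosome 12. Of 13 genes, 12 are typed as lncRNAs and 7 had members, 9 in all. Meg3, the maternally expressed lncRNA of this locus, had 60.3 and 51.7 CPM in WT, against 70 and 57 CPM in Fam5snv/snv in its stronger region, downstream of the main start, and 30.5 and 44 CPM in WT, against 41.6 and 40.7 CPM in Fam5snv/snv at the start itself. Mirg, the microRNA host at the far end of the locus, had 41 and 58.4 CPM in WT, against 63.7 and 59.4 CPM in Fam5snv/snv, and Rian, the snoRNA host between them, 21 and 37.6 CPM in WT, against 43.9 and 40 CPM in Fam5snv/snv. Airn, which silences Igf2r on the paternal chromosome, had 2, 59, 114 and 82 cut sites, again with WT replicate 1 apart. Kcnq1ot1, Jpx and the 2 regions of Ftx had mean signals inside the list's range of 11.9 to 59.7 CPM. The promoter in the stronger Meg3 region is one of 100 among 524 member promoters in the RefSeq table, or 19.1%, that hold AGGTCA on either strand, against 16.3% of all 32851 promoters there. It is printed because the hexamer, in capitals as read on the opposite strand, falls inside a member of a named list.
Meg3 (chr12:109545148-109545447, plus strand, GRCm38.p6): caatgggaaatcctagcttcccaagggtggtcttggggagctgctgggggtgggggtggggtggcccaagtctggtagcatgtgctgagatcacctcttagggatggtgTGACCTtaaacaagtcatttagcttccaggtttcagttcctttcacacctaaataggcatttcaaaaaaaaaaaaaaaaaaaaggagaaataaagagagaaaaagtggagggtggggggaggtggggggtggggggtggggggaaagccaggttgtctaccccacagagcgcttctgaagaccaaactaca

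The remaining lists comprise widely expressed genes and genes of other places. Neat1, the scaffold of paraspeckles, shared a region with Frmd8os at 186 and 137 CPM in WT, against 129 and 135 CPM in Fam5snv/snv. Malat1, an abundant nuclear lncRNA, had 89.7 and 86.9 CPM in WT, against 73.5 and 64.6 CPM in Fam5snv/snv. These were the highest of 7 members from 12 housekeeping and nuclear lncRNAs, and Firre the lowest, at 9.4 CPM on average. Among 22 snoRNA hosts, 10 had 1 member each and 7 were near coding starts only. Snhg8 had 129 and 96 CPM in WT, against 69.2 and 68.5 CPM in Fam5snv/snv, and Snhg20 had 61.3 and 41.9 CPM in WT, against 42.2 and 40.6 CPM in Fam5snv/snv. The Hox clusters had 2 members, both near Hoxd3 and Hoxd4, of which Hoxd3os1 had 7.36 and 20 CPM in WT, against 10.3 and 12.3 CPM in Fam5snv/snv, and the region of Gm14424 and Gm14426 had 4.2 and 4.22 CPM in WT, against 7.25 and 4.43 CPM in Fam5snv/snv. Of 10 lncRNAs of blood, vessel, heart and mesoderm, Bvht and Carmn had members, with Bvht at 15.8 and 16.9 CPM in WT, against 29.4 and 24.8 CPM in Fam5snv/snv, and Carmn at 11.2 and 23.9 CPM in WT, against 25.2 and 21.2 CPM in Fam5snv/snv. Bvht is known from heart and Carmn from heart and smooth muscle.

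Whole libraries held 3083946 and 3580517 cut sites in 2572 and 1377 barcodes (WT) and 8967987 and 10341894 cut sites in 2274 and 2740 barcodes (Fam5snv/snv), so depth differs with genotype. WT replicate 1 had 42168 called peaks against 137996 to 170993 in the other libraries, and libraries shared 3 to 12 barcodes per pair. Promoter regions were tested for 8 of 9 motor neuron markers (all but Mnx1), 6 of 6 progenitor, 5 of 5 mesenchyme and neural crest, 2 of 5 endothelial (Kdr, Cdh5 and Pecam1 without a region) and 2 of 5 blood markers (Gata1, Ptprc and Hbb-y without a region). Their summed signal was 585 to 609 CPM in WT and 675 to 676 CPM in Fam5snv/snv for motor neuron, 543 to 550.1 and 468 to 492 CPM for progenitor, 63.8 to 141 and 81.4 to 96.7 CPM for mesenchyme and crest, 103 to 109.7 and 156 to 166 CPM for endothelium, and 31.9 to 64.7 and 47.7 to 48.8 CPM for blood. The part of these shifts in the results on lncRNA promoters was not tested.

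Between genotypes no lncRNA promoter passed the test. In the quasi-likelihood test of edgeR, fitted to 35770 regions together, 0 of 1064 members reached an adjusted p under 0.05, as did 0 of all regions (0%), and the smallest adjusted p was 0.573. At an unadjusted p under 0.05, 67 members had higher signal in Fam5snv/snv, 6.3% against 5.29% of all regions, and 23 had lower signal, 2.16% against 3.37% of all regions. DESeq2 called 13 members higher (1.22%, against 1.02% of all regions) and 7 lower (0.658%, against 0.542%). In 281 members, or 26.4%, both Fam5snv/snv libraries lay above both WT libraries, against 23.2% of all regions, and in 191, or 18%, below, against 21.4%. The members' shares were thus near the background in each count. The libraries are separate pools of embryos, and p-values measure the spread between these pools.

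The share of signal held by the lncRNA promoters together overlapped between genotypes. Of all cut sites in tested regions they took 3.73% and 3.69% in WT and 3.83% and 3.64% in Fam5snv/snv, or 3.71% ± 0.0266 and 3.74% ± 0.13 (SD, n = 2 each; exact two-sided permutation test, p = 1, where 0.33 is the smallest that 2 against 2 allows). Without the ribosomal RNA copy, an alternative chosen after the data were seen, they took 3.26% and 3.16% (WT), against 3.33% and 3.36% (Fam5snv/snv) (exact permutation p = 0.33), so the genotypes no longer overlapped. Coding promoters took 57.1% and 57% in WT and 52% and 50.8% in Fam5snv/snv, and CpG-rich starts had a lower share in Fam5snv/snv within the lncRNA promoters too. With the ribosomal RNA copy left out, CpG-rich members held 22.9% and 23% of the members' cut sites in WT and 20.7% and 20.2% in Fam5snv/snv (exact permutation p = 0.33), again without overlap.

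Fold changes followed the same division. The median log2 fold change, Fam5snv/snv over WT, was 0.08 for the 1064 members (quartiles −0.25 and 0.50) beside 0.02 for all regions, −0.19 for coding promoters, and 0.23 and 0.18 for other regions inside and between coding genes. CpG-rich members had a median of −0.14, with 58 of 184 (31.5%) below in both Fam5snv/snv libraries and 29 (15.8%) above. CpG-poor members had a median of 0.14, with 133 of 880 (15.1%) below and 252 (28.6%) above. The same shares were 21.4% below and 23.2% above over all regions, and 35.9% and 11.6% over coding promoters. Antisense and lincRNA members each had a median of 0.11 and processed transcripts of 0.00. The 17 members of more than 1 type had a median of −0.38, with 10 (58.8%) below in both Fam5snv/snv libraries and 2 (11.8%) above. The length of called peaks moved with these values. Members' peaks were longer in the deeper Fam5snv/snv libraries, by a median log2 ratio of 0.75, and across the 1064 members the fold change and this ratio had a Spearman rho of 0.819, with both taken from the same peaks. Of the 343 members whose WT peaks averaged under 50% of the length in Fam5snv/snv, 202 lay above in both Fam5snv/snv libraries and 0 below. A difference in NR2F1 signal and a difference in how much of a region was called as peak cannot be told apart here.

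**Figure D4:**
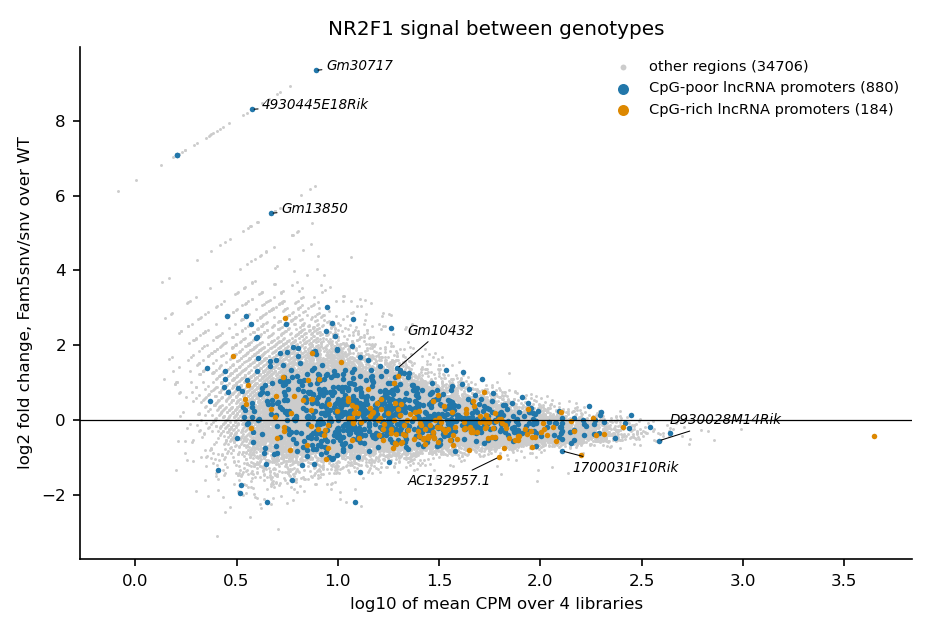
Log2 fold change of NR2F1 signal, Fam5snv/snv over WT (y), by log10 of the mean CPM over 4 libraries (x), for each tested region; blue and orange points are CpG-poor and CpG-rich lncRNA promoters, grey points all others. CpG-rich promoters lie mostly below 0 (median −0.14), CpG-poor ones on both sides (median 0.14), and the rows of points at the top left are regions with 0 or 1 cut site in WT.

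Of the 5 lncRNA promoters of smallest p on the higher side, 3 had at most 1 cut site counted in each WT library, on short WT peaks. Gm30717 (chr7:125416202-125418901), 25.8 kb from Kdm8, had 0 and 0 cut sites in WT and 106 and 132 in Fam5snv/snv. The WT peaks called there were 4 and 6 bp long, against 2471 and 2700 bp in Fam5snv/snv (adjusted p = 0.573 with edgeR). WT cut sites outside these peaks were not counted, so no fold difference over the whole region follows. 4930445E18Rik had 0 and 0 cut sites in WT and 29 and 88 in Fam5snv/snv, on WT peaks of 40 and 58 bp. Gm13850 had 0 and 1 cut sites in WT and 65 and 75 in Fam5snv/snv, also on peaks of 32 and 28 bp in WT. In these 3 regions the WT peaks were at most 58 bp long. Gm10432 (chr12:100287918-100292035) had 10.5 and 11.3 CPM in WT, against 28.4 and 28.6 CPM in Fam5snv/snv (log2 fold change 1.39, SE 0.3, adjusted p = 0.573 with edgeR). Gm31227 had 15.1 and 11.3 CPM in WT, against 30.3 and 32.7 CPM in Fam5snv/snv (log2 fold change 1.26, SE 0.3, adjusted p = 0.573 with edgeR). In both, the groups were well apart, which the choice by smallest p favours, and the peaks were longer in Fam5snv/snv. DESeq2 called all 5, with an adjusted p of 0.000579 for Gm30717, 0.0182 for 4930445E18Rik, 0.0377 for Gm13850, 0.0127 for Gm10432 and 0.0209 for Gm31227.

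On the lower side the called peaks of Fam5snv/snv were longer than those of WT replicate 1, but in 4 of the 5 regions at least 1 was shorter than that of WT replicate 2. AC132957.1 (chr19:45057702-45059344), with a CpG-rich start 9.82 kb from Sfxn3, had 94.6 and 71 CPM in WT, against 45.9 and 37.3 CPM in Fam5snv/snv, over peaks of 1115 to 1643 bp (log2 fold change −0.99, SE 0.23, adjusted p = 0.573 with edgeR). The region of Gm16551, Gm20649 and Gm28182 (chr9:74845821-74855644), 6.28 kb from Onecut1, a transcription factor gene of motor neurons among other cells, had 214 and 203 CPM in WT, against 122 and 97.6 CPM in Fam5snv/snv (log2 fold change −0.93, SE 0.22, adjusted p = 0.573 with edgeR). Lockd, a lncRNA downstream of the cell cycle inhibitor gene Cdkn1b, shares its region with Gm44238 and had 58.2 and 55.2 CPM in WT, against 29.8 and 35 CPM in Fam5snv/snv (log2 fold change −0.81, SE 0.21). In all of these the lowest WT library was well above the highest Fam5snv/snv library, which the choice by smallest p favours. The region of 1700028E10Rik and D730045B01Rik had 83 CPM in each WT library and 57.1 and 42.1 CPM in Fam5snv/snv, and Gm31805, inside Slc38a7, had 129 and 107 CPM in WT, against 67.5 and 78.3 CPM in Fam5snv/snv. DESeq2 called AC132957.1 (adjusted p = 0.00758), the Onecut1 neighbour (adjusted p = 0.00123), Lockd (adjusted p = 0.025) and Gm31805 (adjusted p = 0.0317), where edgeR gave 0.573 for each.

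**Figure D5:**
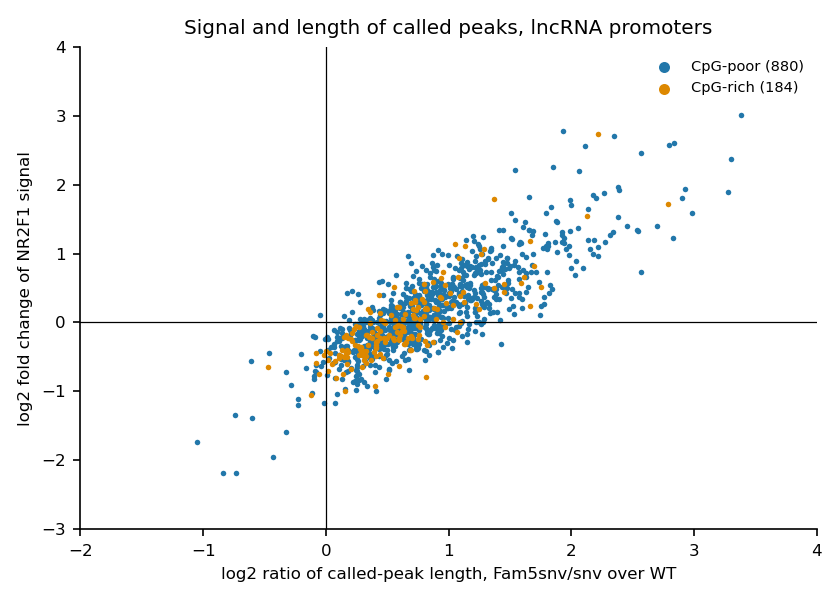
Log2 fold change of NR2F1 signal (y) against the log2 ratio of called-peak length (x), both Fam5snv/snv over WT, for lncRNA promoters with CpG-rich (orange) and CpG-poor (blue) starts; 6 members fall outside the axes. The points lie along a diagonal (Spearman rho 0.819), and regions with longer peaks in Fam5snv/snv have higher fold changes.

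By role, no list had a member that passed edgeR's adjusted threshold. Of the 10 snoRNA hosts, 9 had a fold change below 0, with a median log2 fold change of −0.32 beside 0.02 for all regions, and 5 were below in both Fam5snv/snv libraries. Over all regions 51.7% had a fold change above 0, and 21.4% lay below and 23.2% above in both Fam5snv/snv libraries. Most of the snoRNA hosts had a CpG-rich start, and the classes like them also leaned below 0. CpG-rich members had a median of −0.14 with 39.7% above 0, and coding promoters −0.19 with 32.1% above 0. Among the snoRNA hosts Snhg8 had a log2 fold change of −0.71 (SE 0.22, adjusted p = 0.573 with edgeR). The 7 housekeeping and nuclear lncRNAs had a median of −0.35, with 5 below and 2 above in both Fam5snv/snv libraries (21.4% and 23.2% over all regions), and the lowest value was that of Firre (−1.04, SE 0.56). The 11 neural members had a median of 0.20 and 10 were above 0, led by 2 Sox2ot regions at 1.18 and 1.17 and by Rmst at 1.06, where WT counts were low. The 9 imprinted and X-inactivation members had a median of 0.14, and the 14 microRNA host regions a median of −0.03.

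Regions of a single host gene lay apart in Mir9-3hg and close together in Dleu2, and differences between regions were not tested. Mir9-3hg had log2 fold changes of 0.07 (SE 0.27) at its start, 0.74 (SE 0.2, adjusted p = 0.573 with edgeR and 0.0317 with DESeq2) in the middle region, and −0.46 (SE 0.27) in the last. Peaks of the middle region covered 2202 and 5350 bp in WT and 7108 and 7490 bp in Fam5snv/snv. Mir17hg had −0.62 (SE 0.21, adjusted p = 0.573 with edgeR). The 2 regions of Dleu2, host of miR-15a and miR-16-1, had −0.52 (SE 0.2) and −0.54 (SE 0.22), and Mir124a-1hg had −0.09 (SE 0.27). Gm38604 beside Nr2f1 had 0.12 (SE 0.28), with a 95% interval from −0.53 to 0.77, and the region of Gm44946 and Gm44948 beside Nr2f2 had −0.12 (SE 0.2). For 1700031F10Rik the value was −0.83 (SE 0.29, adjusted p = 0.573 with edgeR).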

How the data were processed

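Per the labels and methods, single cells were prepared with the 10x single-cell ATAC kit after anti-NR2F1 CUT&Tag, and the authors processed reads with Cell Ranger ATAC against mm10 (version 2.0.0 in the methods, 1.2.0 in the matrix headers). For each library the deposited files hold peaks, barcodes and counts, which are whole cut sites per peak and barcode, not normalized, and counted only inside that library's own peaks. A called peak may hold 0 cut sites.

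Peaks overlapping by at least 1 bp were merged, and cut sites were summed over barcodes, since cells are not replicates. A minimum of 10 cut sites in 2 or more libraries was set, and regions above it were tested with edgeR 4.0.16 (TMM, quasi-likelihood, R 4.3.3), with p-values adjusted by Benjamini-Hochberg over all tested regions; 2 members were not tested. DESeq2 1.42.0 was an alternative, with others listed in the closing section. The edgeR script was tested on simulated data. Annotation was GENCODE M21, and sequence came from RefSeq GRCm38.p6, the same build. Library totals are 3083946 to 10341894 cut sites, and the interval of a fold change is from the edgeR fit. Members, lists and tests were chosen with earlier results of these data known. Named members were the 10 of highest mean CPM, the 5 of smallest p in each direction, members of 7 lncRNA lists, those nearest to a gene of the study, and those holding a direct repeat.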

Additional observations from a re-analysis of the deposited data

How the results depend on the processing

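Under scaling by barcodes, scaling by all deposited cut sites, no filter on low counts, 1 start per gene and a distance of over 5 kb from coding starts, edgeR called 0 members in either direction. With DESeq2 it was 13 higher and 7 lower, against 366 and 194 of all 35770 regions. With only regions covered to at least 50% in every library, 1 of 223 members was higher (Gm30498), against 14 of 8900 regions. With only peaks near a lncRNA start 4 of 1015 members were higher. Of these, Gm42423, Gm39033 and Gm10451 had no such WT peak with a cut site. That setting took peaks away from members only and left other regions whole, so its calls cannot be set beside the background. Leaving out 1 library gave 0 to 134 members higher and 0 to 57 lower. The larger counts came without WT replicate 1 (55 and 9) and without WT replicate 2 (134 and 57), where the lone WT library is assumed to vary like Fam5snv/snv. Calls over all regions rose in the same settings, so these counts alone do not set the members apart from the background. Without WT replicate 1 the median fold change was 0.09 for members and 0.01 for all regions. Without WT replicate 2 it was 0.10 for members and 0.05 for all regions. The median fold change of members ran from −0.03 to 0.16 over all settings. The all-region median moved to 0.97 with scaling by barcodes, so the values of that setting are relative to it. The −0.03 came with scaling by all deposited cut sites and is not relative, and the all-region median there was −0.09.

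The Fam5snv/snv minus WT difference in the members' share of cut sites was 0.0295 percentage points, and −0.409 with scaling by all deposited cut sites. It was 0.348 with only peaks near a lncRNA start, where members alone lost peaks. Without the ribosomal RNA copy it was 0.136, and on leaving out 1 library −0.0624 to 0.121. The cause was not tested. Replicate numbers did not pair the libraries (r = 0.0292 between replicate deviations over 35770 regions). With a replicate block 0 members were called and the members' median was 0.11.

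Of 38 named regions some turned direction. 1700023G09Rik went to 0.09 with scaling by barcodes and 0.02 with the block. With only peaks near a lncRNA start the values were 2.24 for 1700023G09Rik, 1.24 for Gm11523, −0.04 for Gm38604, 0.01 for Mir124a-1hg and 0.09 for Gm44946 and Gm44948. On leaving out 1 library the ranges were −0.40 to 0.43 for 1700023G09Rik, −0.48 to 0.13 for Gm11523, −0.24 to 0.64 for Gm33016, −0.21 to 0.54 for Gm38604, −0.02 to 0.48 for Gm31946, −0.73 to 7.52 for Gm29318, −0.35 to 0.22 for Mir124a-1hg, −0.05 to 1.05 for Carmn, −0.67 to 0.07 for Gm14488, −0.84 to 0.61 for Hoxd3os1, −0.47 to 0.16 for Gm14342 and Gm27032, −0.48 to 0.21 for Gm13203, −0.14 to 0.19 for Miat and −0.23 to 0.43 for Mir9-3hg. Low depth in WT limits all of these.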
